A study of Homo sapiens with 6 samples.

Results

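Lysyl oxidases, lysyl hydroxylases and the collagen chaperone HSP47 were followed as 8 genes, LOX, LOXL1, LOXL2, LOXL3, PLOD1, PLOD2, PLOD3 and SERPINH1. They were taken by symbol as a family of collagen-modifying genes, and all 8 had a row among the 27134 genes measured. The cells were KM12, an established human colorectal cancer line, either overexpressing CDO1 (3 libraries) or mock controls (3 libraries), all at passages 10 to 15. The enzyme made by CDO1 is a dioxygenase that turns cysteine into its sulfinate. The vector, any selection and the number of clones are not given in the labels, and nothing there ties the libraries of a group to separate cultures. A p-value here therefore speaks only of variation among libraries, some or all of which may be technical.

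Collagen is modified in steps. In the endoplasmic reticulum the lysyl hydroxylases encoded by the PLOD genes add hydroxyl groups to lysines of the new chains, and HSP47, the product of SERPINH1, holds the folded triple helix until it leaves for the Golgi. Outside the cell the lysyl oxidases, copper enzymes encoded by LOX and the LOXL genes, turn lysines and hydroxylysines of collagen and elastin into aldehydes that join into cross-links. In carcinomas much of this work is done by stromal fibroblasts, and tumour cells make some of the enzymes as well.

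With CDO1, 4 of the 8 genes fell (LOXL1, LOXL2, PLOD1 and SERPINH1), 1 rose (PLOD2) and 3 did not pass the test (LOX, LOXL3 and PLOD3). The test was limma on log2 of the normalised count plus 1, with p-values adjusted by Benjamini and Hochberg over all 21775 genes tested and a threshold of 0.05. At that threshold 24.0% of the genes tested were called, 11.3% higher and 12.7% lower. Calls were more frequent among genes averaging at least 100 normalised counts, the level of all members but LOX and LOXL1. There 23.5% were higher and 9.74% lower below 40% GC content, and 9.79% higher and 34.1% lower at 60% or more. The normalised counts of the groups did not overlap in 5 of the 8 genes, against 37.1% of genes tested. The median log2 fold change was -0.09 over the 8 and -0.003 over all genes tested. The 2 large falls were in LOXL1, at 3.27-fold, and LOXL2, at 2.55-fold, and the other 3 called changes were of 1.13-fold to 1.37-fold. edgeR and DESeq2 on the recovered reads and the authors' deposited table each called 5 members, the same 5. In all, edgeR called 35.7% of the 15184 genes it tested, and DESeq2 27.4% of the 15555 it gave an adjusted p. The authors' table called 15.9% of all 27134 genes, so these shares have different bases.

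The lysyl hydroxylases PLOD2 and PLOD1 went opposite ways, and the 250 bases before the RefSeq start of each are shown for that reason. Capitals mark ACGTG, the core bound by hypoxia-inducible factors, and GGGCGG, the box bound by SP1, on either strand; no marked stretches overlap. The PLOD2 window is chr3:146161185-146161434 on the minus strand of GRCh38.p14, inside the PLOD2 gene as annotated by GENCODE 29 but outside its exons. The PLOD1 window is chr1:11934467-11934716 on the plus strand, also inside its gene, with 23 of its bases in a PLOD1 exon.
PLOD2: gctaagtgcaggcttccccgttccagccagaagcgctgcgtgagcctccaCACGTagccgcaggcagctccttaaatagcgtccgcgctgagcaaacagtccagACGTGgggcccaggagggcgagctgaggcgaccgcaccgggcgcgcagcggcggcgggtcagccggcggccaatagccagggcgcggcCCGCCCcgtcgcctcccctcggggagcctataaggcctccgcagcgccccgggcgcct
PLOD1: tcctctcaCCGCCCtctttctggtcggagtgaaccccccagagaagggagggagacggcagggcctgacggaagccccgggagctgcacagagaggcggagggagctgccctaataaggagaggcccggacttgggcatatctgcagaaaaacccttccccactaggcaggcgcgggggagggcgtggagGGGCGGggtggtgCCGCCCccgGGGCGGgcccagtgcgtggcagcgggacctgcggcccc
PLOD2 holds ACGTG 2 times and GGGCGG 1 time. PLOD1 holds ACGTG 0 times and GGGCGG 4 times. Over 35116 RefSeq windows of the same length, 18.5% hold at least 1 ACGTG and 7.52% hold 2 or more, while 42.6% hold GGGCGG and 24.3% hold it 2 or more times. Both windows are rich in G and C, at 72.4% for PLOD2 and 70.4% for PLOD1 against a median of 58.0%, with 30 and 17 CG dinucleotides. Among the windows of other members, LOX, which was not called, held ACGTG 4 times and GGGCGG 1 time. PLOD3, also not called, held ACGTG 0 times and GGGCGG 3 times. LOXL1 and SERPINH1, which fell, and LOXL3, which was not called, held neither. No window was examined for LOXL2, which also fell. These matches describe letters in a window and are not binding sites, and a link to the direction of change was not tested.

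The libraries hold 17516640 to 22198173 reads assigned to genes, recovered from the deposited values. No libraries within a group agreed within sampling noise (chi-square over its degrees of freedom 2.23 or more), so all 6 were kept. CDO1 itself had normalised counts of 2483.91, 2336.28 and 2332.78 with CDO1 and of 68.11, 0 and 0 in mock. Mock replicate 1 stands apart by its 76 CDO1 reads and by scarce genes such as KDR (47.50) and TEK (44.81), receptors of endothelial cells that are at 1.13 or less in the other mock libraries. The CDO1 libraries held KDR at 5.47 to 11.94 and TEK at 6.57 to 9.86. Across all genes mock replicate 1 was not the outlying mock library. Its chi-square ratio was 4.64 to replicate 2 and 3.32 to replicate 3, against 9.57 between those 2. Each count below is also given without mock replicate 1. Of 10 colon epithelial markers 9 averaged at least 100 normalised counts. The 10 summed to 195289.44 to 209268.02 with CDO1 and 145822.76 to 154418.47 in mock, most of it KRT8. Of 10 fibroblast markers 5 are not in the table (COL1A2, COL3A1, DCN, LUM and THY1), and the other 5 summed to 139.6 to 156.55 with CDO1 and 203.63 to 314.56 in mock, most of it COL1A1. The part of these marker shifts in the results was not tested. In bulk RNA, fewer cells making a transcript and less of it per cell cannot be told apart.

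Per unit of length the lysyl hydroxylases and HSP47 were far more abundant than the lysyl oxidases. Levels per length are given as TPM, the length-corrected share of all transcripts in a library, from normalised counts and the longest annotated transcript of each gene. PLOD1 averaged 212 ± 9.23 TPM with CDO1 and 263 ± 16.0 in mock (SD, n = 3 each). PLOD3 followed at 181 ± 10.1 with CDO1 and 186 ± 12.8 in mock, then SERPINH1 at 124 ± 2.91 and 142 ± 4.71, and PLOD2 at 61.2 ± 2.93 and 45.3 ± 3.45, CDO1 before mock in each. The lysyl oxidases lay at or below 12.3 TPM in every library. LOXL3 averaged 8.66 ± 0.195 with CDO1 and 7.68 ± 1.27 in mock, LOXL2 4.49 ± 0.223 and 11.7 ± 0.633, and LOXL1 1.55 ± 0.219 and 5.15 ± 1.05. LOXL2 was the highest lysyl oxidase in mock and LOXL3 in the CDO1 libraries. The scarcest were LOXL4, which is outside the 8, at 0.654 ± 0.304 TPM with CDO1 and 1.07 ± 0.435 in mock, and LOX at 0.617 ± 0.318 and 0.461 ± 0.136. The libraries of LOX and LOXL4 overlapped in the CDO1 group, so their order there is not resolved.

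**Figure D1:**
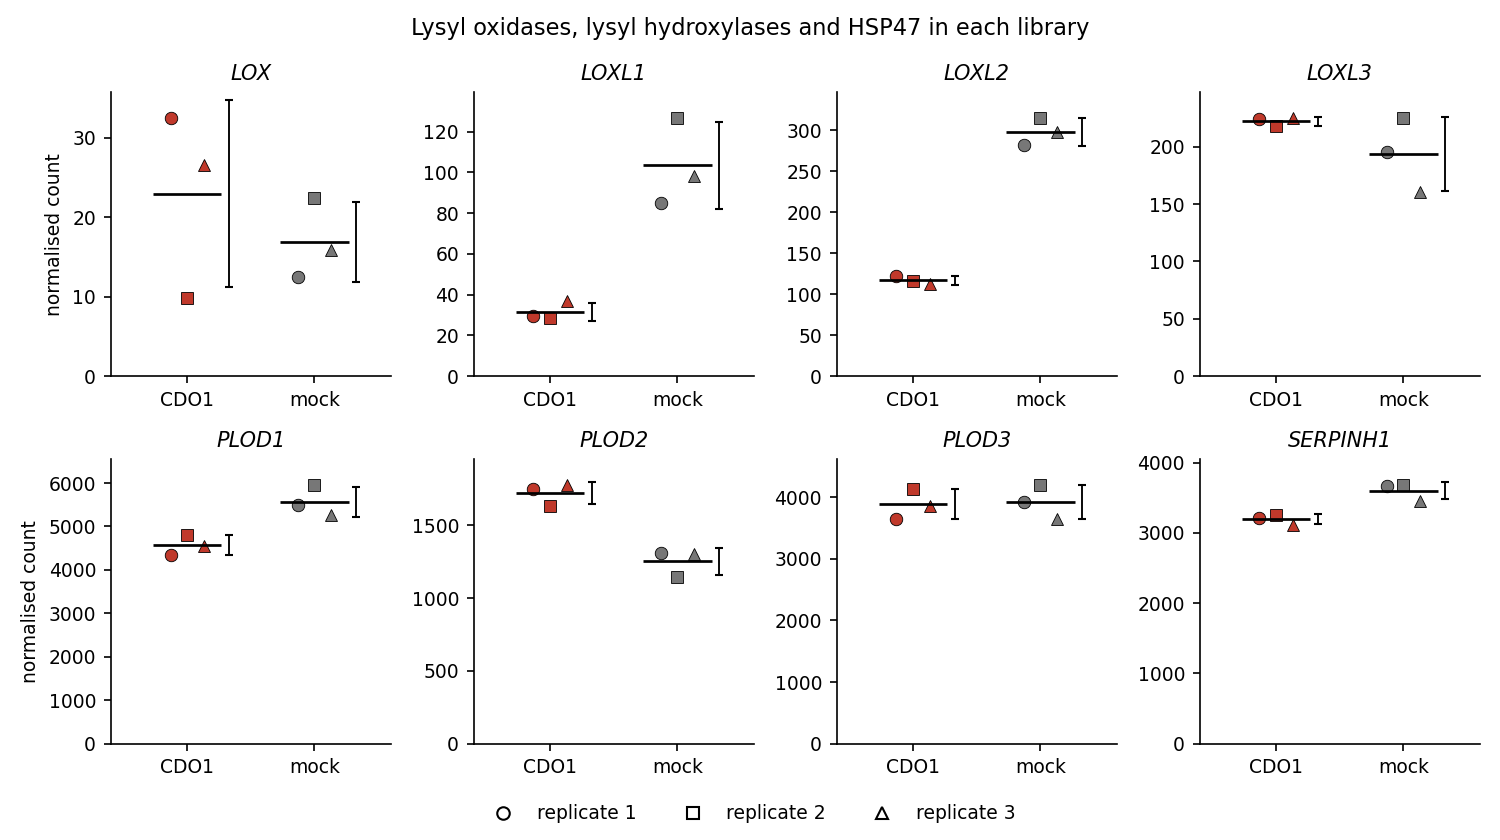
Normalised count of each of the 8 genes in every library on a linear axis from 0, with the CDO1 libraries in red on the left and the mock libraries in grey on the right; shapes mark replicates, lines are group means and bars are 1 SD. The groups are apart for LOXL1, LOXL2, PLOD1, PLOD2 and SERPINH1 and overlap for LOX, LOXL3 and PLOD3.

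LOXL2 encodes a secreted lysyl oxidase with scavenger receptor domains that acts on collagen IV of basement membranes among other substrates (ENSG00000134013, GRCh38 chromosome 8, 23297189 to 23425328). Its normalised counts were 122.27, 116.05 and 112.05 with CDO1 and 281.40, 315.02 and 297.53 in mock. Every CDO1 library lay below every mock library, with a mean of 117 ± 5.15 against 298 ± 16.8 (SD, n = 3 each), 2.55-fold lower. Its log2 fold change was -1.34 with an SE of 0.10 (95% interval -1.56 to -1.13, limma adjusted p = 3.85e-09). Without mock replicate 1 it was -1.38 (adjusted p = 1.73e-07). GENCODE 29 has 120 exonic bases shared with ENTPD4 on the same strand, 2.10% of the exonic bases of LOXL2, and ENTPD4 had a log2 fold change of 0.01.

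LOXL1 encodes the lysyl oxidase that works on elastin and is brought to elastic fibres by fibulin-5 (ENSG00000129038, chromosome 15, 73925989 to 73952137). Normalised counts were 29.58, 28.46 and 36.74 with CDO1 and 85.14, 126.79 and 98.42 in mock. The groups were well apart, with the lowest mock library more than 2 times the highest CDO1 library. The mean was 31.6 ± 4.49 with CDO1 against 103 ± 21.3 in mock (SD, n = 3 each), 3.27-fold lower, from 26 to 40 reads per CDO1 library and 87 to 130 per mock library. On the log2 scale the difference was -1.67 with an SE of 0.19 (95% interval -2.06 to -1.28, limma adjusted p = 1.05e-06), and -1.80 without mock replicate 1 (adjusted p = 6.94e-06). The antisense gene LOXL1-AS1 shares 335 exonic bases with LOXL1, 9.21% of its exonic bases. LOXL1-AS1 stood at 32.54, 35.03 and 29.39 normalised counts with CDO1 and at 72.59, 61.44 and 73.53 in mock, a log2 fold change of -1.07 with an SE of 0.18 (limma adjusted p = 0.000186). The strand setting of the counting is not stated, so reads of the shared stretch cannot be assigned to either gene.

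LOXL3, a relative of LOXL2 with the same kind of scavenger receptor domains (ENSG00000115318, chromosome 2, 74532414 to 74555690), did not pass the test. It stood at 223.84, 217.86 and 225.01 normalised counts with CDO1 and at 195.37, 225.29 and 160.64 in mock. The CDO1 libraries were close together, and mock replicate 2 lay as high as they did. Its log2 fold change of 0.21 had a 95% interval of -0.03 to 0.45 (limma adjusted p = 0.206). Without mock replicate 2 it was 0.33 and passed (adjusted p = 0.0367). LOXL3 shares 625 exonic bases with HTRA2 on the opposite strand, 14.3% of its own, and 216 with DOK1. HTRA2, at 698.14 to 720.37 normalised counts with CDO1 and 589.4 to 658.69 in mock, had a log2 fold change of 0.18 (adjusted p = 0.0571).

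LOX, the founding member of the family (ENSG00000113083, chromosome 5, 122063195 to 122078360), was barely detected. Its normalised counts were 32.54, 9.85 and 26.63 with CDO1 and 12.55, 22.43 and 15.84 in mock, from 9 to 33 reads per library. The CDO1 libraries held both the highest and the lowest value of the 6. Its log2 fold change of 0.30 had a 95% interval of -0.47 to 1.08 (limma adjusted p = 0.619), and it was -0.01 without CDO1 replicate 1. The 95% interval spans falls and rises, so no direction can be given for LOX from these libraries. LOXL4 (ENSG00000138131) had 9.86, 26.27 and 16.53 normalised counts with CDO1 and 17.03, 39.99 and 27.15 in mock, and its log2 fold change of -0.67 did not pass either (95% interval -1.39 to 0.06, adjusted p = 0.186).

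The mix of lysyl oxidase transcripts differed between the groups. Of the summed TPM of LOX and LOXL1 to LOXL4, LOXL3 made up 54.1%, 54.5% and 54.1% with CDO1 and 32.3%, 30.1% and 26.1% in mock. LOXL2 made up 29.2%, 28.6% and 26.6% with CDO1 and 45.9%, 41.5% and 47.8% in mock. LOXL1 averaged 9.68% ± 1.23 and 19.7% ± 1.83 in the same order (SD, n = 3 each). The summed level was 16.0 ± 0.414 TPM with CDO1 and 26.0 ± 3.13 in mock. Within a library LOXL3 stood at 1.86, 1.90 and 2.04 times LOXL2 with CDO1 and at 0.704, 0.725 and 0.547 times in mock, both per length. LOXL1 over LOXL2 overlapped between the groups, at 0.308 to 0.418 with CDO1 and 0.385 to 0.513 in mock.

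**Figure D2:**
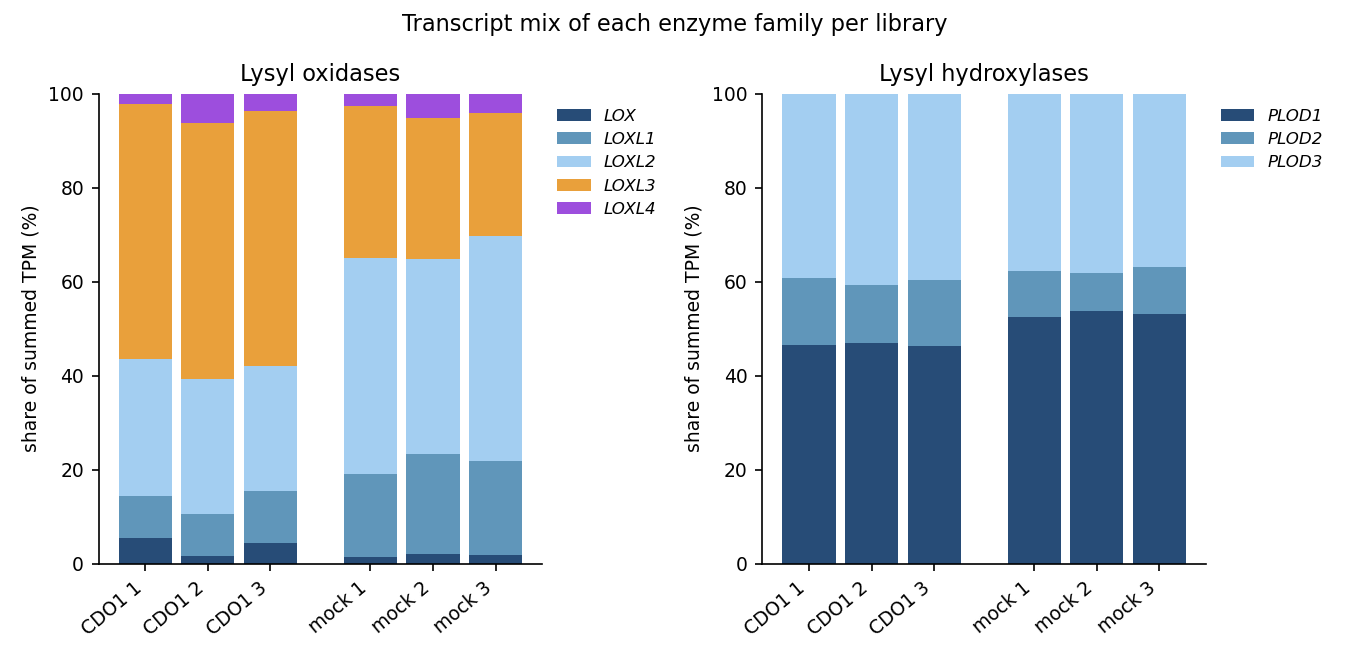
Share of each gene in the summed TPM of its family in every library, with lysyl oxidases on the left and lysyl hydroxylases on the right, and CDO1 libraries before mock libraries in each panel. LOXL3 holds 54.1% to 54.5% of lysyl oxidase transcripts in CDO1 libraries and 26.1% to 32.3% in mock libraries, and PLOD2 12.3% to 14.3% of PLOD transcripts against 7.95% to 10.1%.

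PLOD2 encodes the lysyl hydroxylase of the ends of collagen chains, the telopeptides, and is a known target of hypoxia-inducible factor (ENSG00000152952, chromosome 3, 146069440 to 146163653). It was the member that rose. Normalised counts were 1749.29, 1634.52 and 1773.46 with CDO1 and 1307.52, 1144.99 and 1303.24 in mock. All CDO1 libraries lay above all mock libraries, with a mean of 1719 ± 74.2 against 1252 ± 92.6 (SD, n = 3 each), 1.37-fold higher. The log2 fold change was 0.46 with an SE of 0.06 (95% interval 0.33 to 0.59, limma adjusted p = 1.32e-05) and 0.49 without mock replicate 1 (adjusted p = 0.000116).

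PLOD1 encodes the hydroxylase of lysines within the triple helix (ENSG00000083444, chromosome 1, 11934205 to 11975538), and it fell. It had 4346.60, 4805.03 and 4543.41 normalised counts with CDO1 and 5485.51, 5947.31 and 5259.35 in mock. The groups did not overlap, and the mean was 4565 ± 230 against 5564 ± 351 (SD, n = 3 each), 1.22-fold lower. The log2 fold change was -0.28 with an SE of 0.06 (95% interval -0.40 to -0.17, limma adjusted p = 0.000696), and -0.29 without mock replicate 1 (adjusted p = 0.00644).

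PLOD3 encodes a hydroxylase that also attaches sugars to hydroxylysine (ENSG00000106397, chromosome 7, 101205977 to 101218420). Its normalised counts were 3650.44, 4136.12 and 3863.78 with CDO1 and 3921.68, 4192.77 and 3640.48 in mock. The groups lay over each other. Its log2 fold change of -0.01 had a 95% interval of -0.14 to 0.11 (limma adjusted p = 0.914). With each library's trend with GC content removed it became 0.11 (adjusted p = 0.0416), so no direction can be given for PLOD3. It shares 429 exonic bases, 7.57% of its own, with ZNHIT1 on the opposite strand, whose log2 fold change was 0.11 (adjusted p = 0.180).

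Within each library the ratio of PLOD2 to PLOD1, per length, was 0.309, 0.261 and 0.299 with CDO1 and 0.183, 0.148 and 0.190 in mock, with no overlap. PLOD2 made up 13.5% ± 1.09 of summed PLOD transcripts with CDO1 and 9.21% ± 1.12 in mock (SD, n = 3 each). PLOD1 made up 46.6% ± 0.345 and 53.1% ± 0.649, and the summed PLOD level was 454 ± 16.8 TPM and 494 ± 25.6, CDO1 before mock. In both groups PLOD1 was the most abundant of the 3 and PLOD2 the least.

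SERPINH1, the gene of HSP47 (ENSG00000149257, chromosome 11, 75562056 to 75572783), had 3217.55, 3258.10 and 3114.35 normalised counts with CDO1 and 3669.85, 3678.79 and 3461.74 in mock. Each CDO1 library was below each mock library, at a mean of 3197 ± 74.1 against 3603 ± 123 (SD, n = 3 each), 1.13-fold lower. The log2 fold change was -0.17 with an SE of 0.05 (95% interval -0.28 to -0.07, limma adjusted p = 0.0167). The call was lost without mock replicate 1 (-0.16, adjusted p = 0.105), without CDO1 replicate 1 (-0.18, 0.0547) and without CDO1 replicate 3 (-0.15, 0.0961). Without mock replicate 1 the count of called members was therefore 4, with 1 higher and 3 lower. LOX, LOXL3 and PLOD3 stood at 0.12, 0.22 and -0.01 on the log2 scale without that library and again did not pass.

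The transcripts of these genes differ in GC content, which went with the direction of change across the table. PLOD2 has 34.4% GC in its longest transcript and LOX 39.6%. SERPINH1, LOXL3, LOXL2 and PLOD1 lie between 56.4% and 58.6%, PLOD3 is at 61.7% and LOXL1 at 67.6%. Among genes averaging at least 100 normalised counts, the median log2 fold change was 0.05 in the 1766 genes under 40% GC, -0.03 in the 1603 genes from 55% to 60% and -0.11 in the 1675 genes of 60% or more. With each library's GC trend removed, LOXL1 stood at -1.45, LOXL2 at -1.27, PLOD1 at -0.21, SERPINH1 at -0.12 and PLOD2 at 0.44, and all 5 passed.

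**Figure D3:**
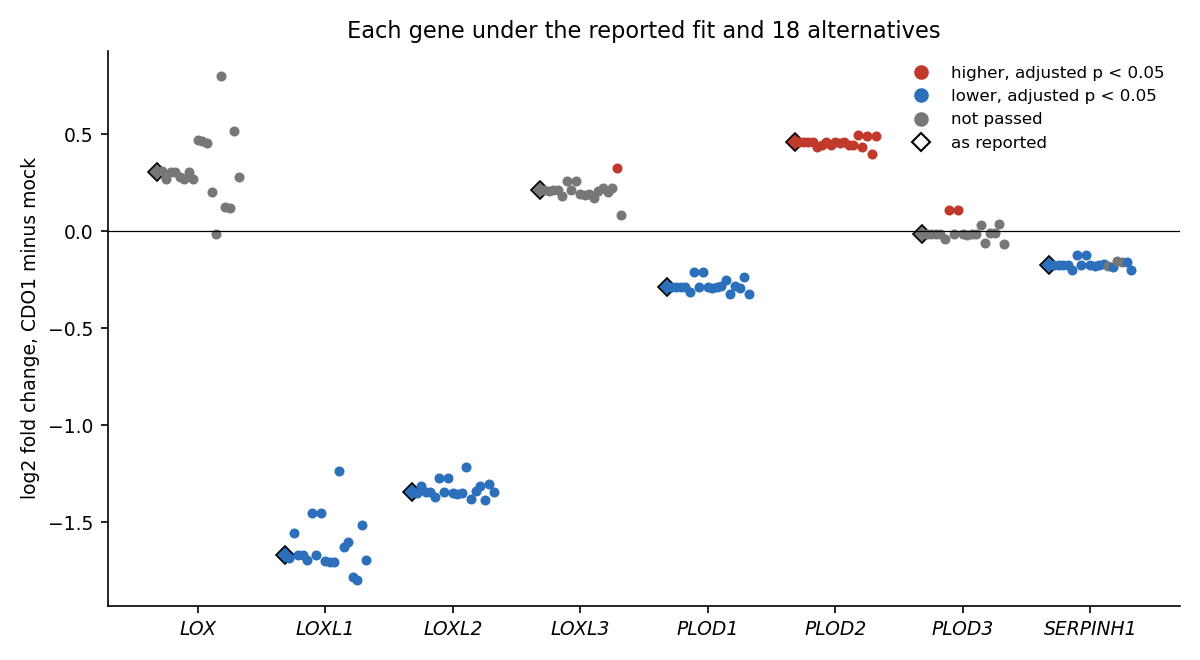
Difference on the log2 scale (CDO1 minus mock) for the 8 genes under the reported fit (diamond) and 18 alternatives (circles), with red where a gene passed as higher, blue where it passed as lower and grey where it did not pass. LOXL1, LOXL2, PLOD1 and PLOD2 keep their colour throughout, SERPINH1 turns grey under 3 alternatives, and LOX and PLOD3 have values on either side of 0.

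Other enzymes and helpers of collagen maturation changed in a minority. Of 31 such genes listed, 30 were in the table and tested, of which 5 fell, 2 rose and 23 did not pass. That is 23.3% called, against the 24.0% of all genes, with a median log2 fold change of -0.03. Without mock replicate 1, 5 fell and 0 rose. P3H3 and FKBP10 were among the 5 that fell. P3H4, a further P3H gene of the list, did not pass. It averaged 1200 ± 89.6 normalised counts with CDO1 and 1218 ± 171 in mock (log2 fold change -0.015, limma adjusted p = 0.927). P3H3 averaged 179 ± 26.6 normalised counts with CDO1 and 510 ± 39.2 in mock (SD, n = 3 each, log2 fold change -1.51, limma adjusted p = 9.58e-10). FKBP10, a prolyl isomerase, averaged 542 ± 47.2 with CDO1 and 1026 ± 84.3 in mock (log2 fold change -0.92, adjusted p = 1.47e-08).

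The procollagen N-proteinases ADAMTS14 and ADAMTS2, which trim the amino end of procollagen, fell by 1.54 and 1.19 on the log2 scale (limma adjusted p = 8.11e-11 and 2.33e-05). ADAMTS14 averaged 201 ± 14.7 normalised counts with CDO1 and 586 ± 45.1 in mock (SD, n = 3 each). P4HB, a subunit of prolyl 4-hydroxylase and also a disulfide isomerase, fell by 0.32 (adjusted p = 5.23e-05). The catalytic subunit gene P4HA1 rose by 0.23 (adjusted p = 0.0234), and its adjusted p was 0.0773 without mock replicate 1; no maturation gene was called higher without CDO1 replicate 1 or CDO1 replicate 3 either. P4HA2 stood at 1040 ± 19.9 with CDO1 and 1033 ± 20.0 in mock (SD, n = 3 each; log2 fold change 0.01). COLGALT1, which adds galactose to hydroxylysine, BMP1, the C-proteinase, and PPIB, a prolyl isomerase, had log2 fold changes of 0.08, -0.05 and 0.06 and did not pass.

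**Figure D4:**
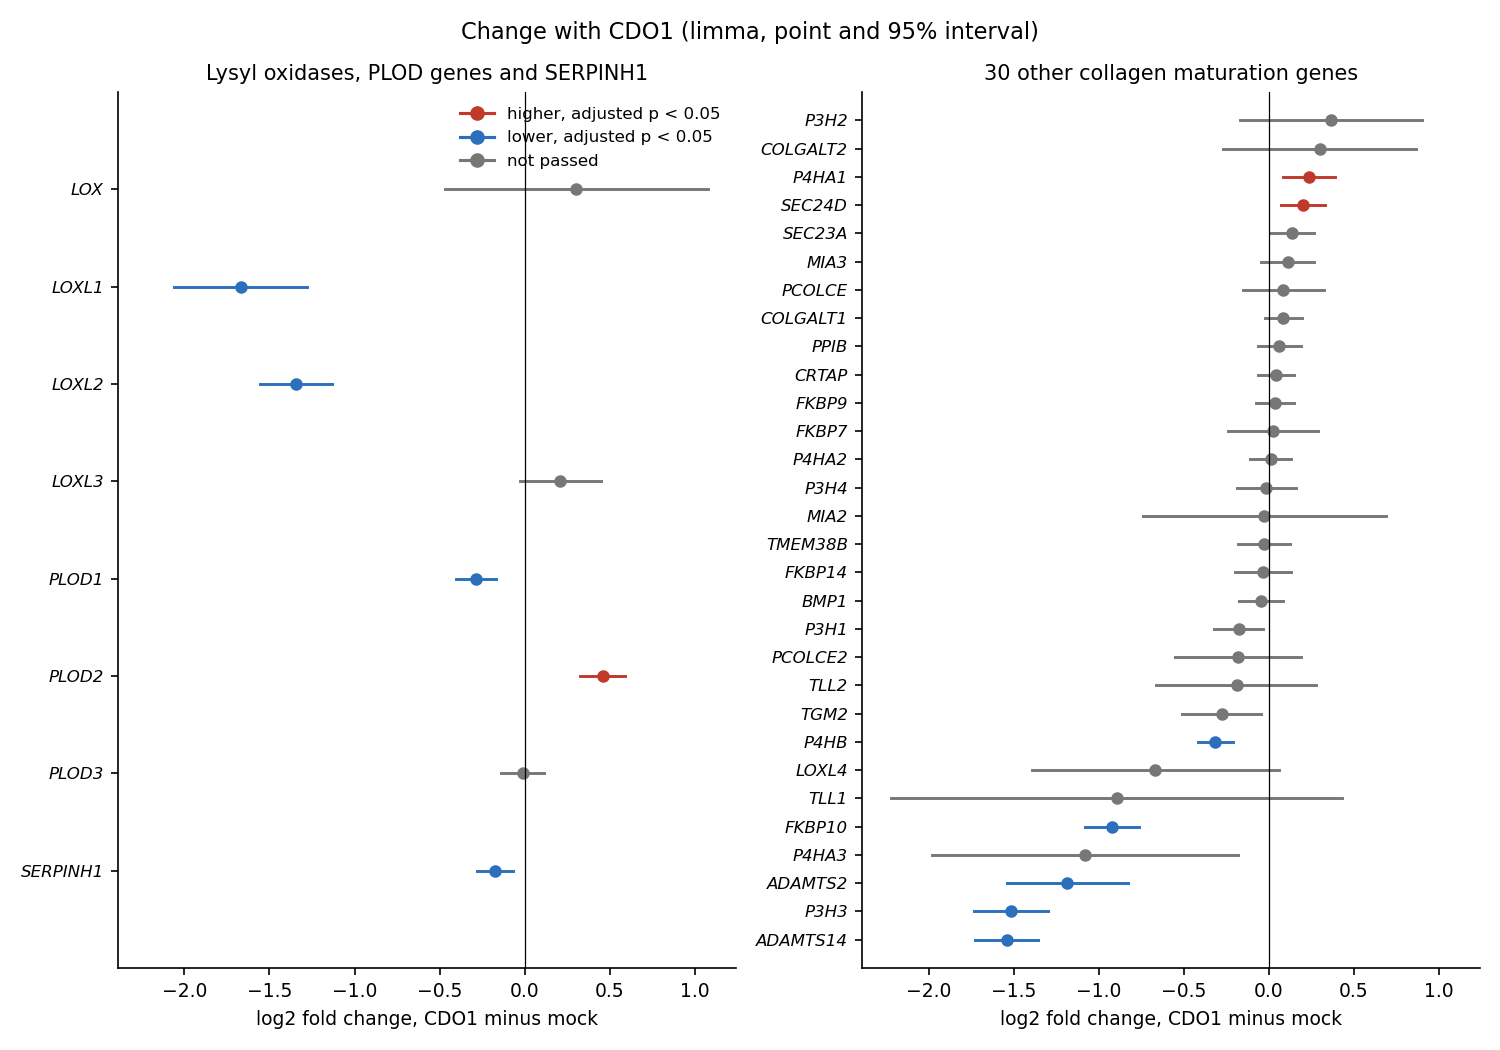
Log2 fold change (CDO1 minus mock) with its 95% interval from limma for the 8 genes on the left and for 30 other collagen maturation genes on the right; red rose, blue fell and grey did not pass. LOXL1 (-1.67) lies lowest, followed by ADAMTS14 (-1.54), P3H3 (-1.51) and LOXL2 (-1.34), while most maturation genes lie near 0.

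Among substrates and partners of the cross-linking enzymes, 24 of 29 listed genes were in the table and 22 were tested. Of these 10 fell, 2 rose and 10 did not pass, where 24.0% of all genes tested were called (12.7% lower and 11.3% higher). The median log2 fold change was -0.56, and the counts were the same without mock replicate 1. Fibrillar collagen was scarce in these cells. COL1A1, an alpha chain of type I collagen, averaged 103 ± 10.0 normalised counts with CDO1 and 225 ± 37.3 in mock (SD, n = 3 each, log2 fold change -1.12, limma adjusted p = 1.69e-06). COL27A1 fell by 1.24 on the log2 scale (limma adjusted p = 1.51e-07). FBLN1, the matrix protein fibulin-1, fell by 1.41 (adjusted p = 2.82e-09).

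The 2 members that rose were COL4A1 and COL4A2, the main chains of basement membrane collagen IV. COL4A1 averaged 461 ± 47.9 normalised counts with CDO1 and 252 ± 14.9 in mock, a log2 fold change of 0.87 (limma adjusted p = 3.44e-07). COL4A2 averaged 411 ± 11.1 and 242 ± 24.4 in the same order (0.77, adjusted p = 1.58e-06). The other 4 collagen IV chains, COL4A3, COL4A4, COL4A5 and COL4A6, all fell, by 1.17 (COL4A5) to 1.70 (COL4A3) on the log2 scale, and averaged 7.61 to 55.5 normalised counts with CDO1 and 19.0 to 125 in mock (limma adjusted p at most 0.0098). The fall of COL4A6 did not pass with DESeq2 (adjusted p = 0.0597) or in the authors' deposited table (0.0547). FBLN5, the fibulin that carries LOXL1 to elastin, averaged 17.7 ± 3.01 with CDO1 and 50.5 ± 5.99 in mock (log2 fold change -1.47, adjusted p = 7.11e-05). The elastin gene ELN was at 0, 0 and 0 with CDO1 and at 1 read or fewer in each mock library.

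Of 10 genes of copper handling, which supplies the lysyl oxidases, 1 fell and 9 did not pass, where 24.0% of all genes were called. The count was also 1 without mock replicate 1, but 0 without CDO1 replicate 1 and 0 without CDO1 replicate 3. The gene that fell was the metallothionein MT2A, at 7239 ± 224 normalised counts with CDO1 and 8197 ± 163 in mock (SD, n = 3 each; log2 fold change -0.18, limma adjusted p = 0.00949). ATP7A, the pump that loads copper onto secreted enzymes, had a log2 fold change of 0.13 (adjusted p = 0.370), and the uptake channel gene SLC31A1 one of 0.12 (adjusted p = 0.171).

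PLOD2, LOX and P4HA1 are known as hypoxia-induced genes, so a list of such genes was read beside them. P4HA1 is itself in that list, is among its genes that rose and was also counted under collagen maturation. Of the 20 genes of the list that were tested, 7 rose, 4 fell and 9 did not pass, where 24.0% of all genes tested were called. Most of these genes averaged at least 100 normalised counts, a level at which larger shares of genes were called. The median log2 fold change of the list was -0.02. Without mock replicate 1, 4 rose and 3 fell, and the count was also 7 without CDO1 replicate 1. The glucose transporter SLC2A3 rose by 0.56 (limma adjusted p = 3.88e-06), PDK1, a kinase that restrains pyruvate dehydrogenase, by 0.45 (adjusted p = 0.000145) and the mitophagy receptor BNIP3L by 0.29 (adjusted p = 0.0013). BNIP3, a relative of BNIP3L, averaged 129 ± 2.59 normalised counts with CDO1 and 282 ± 23.5 in mock (SD, n = 3 each; log2 fold change -1.12, adjusted p = 5.88e-08), and the peptide hormone gene ADM fell by 0.52 (adjusted p = 3.10e-05). VEGFA had a log2 fold change of 0.04. CA9 was at 0 reads in each CDO1 library and at 0, 2 and 1 in mock, too scarce in both groups to be tested.

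LOXL2 was the called member with the largest change among those averaging at least 100 normalised counts. Over the 6 libraries and 10549 other protein-coding genes of that level, the genes with the most similar profile were AKR1B1, STMN3, CHD5, WNT16 and MEIS3. Likeness was the root mean square difference of log2 values centred on each gene's mean, which was 0.0525 for AKR1B1 and 0.06 for MEIS3. AKR1B1, an aldose reductase, averaged 179 normalised counts with CDO1 and 452 in mock, and WNT16, a Wnt ligand, 638 and 1677. Over 2 groups of 3 libraries such a profile is mainly the difference between the group means.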

How the data were processed

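RNA of 6 KM12 libraries was sequenced by the authors. Per the submitters' processing notes, STAR 2.5.1b and DESeq2 1.10.1 were used with GRCh38; of the counter, annotation and strand setting nothing is said there or in the labels. The deposited signal values are read counts per gene divided by a size factor for each library, as read from the values: 100% are whole reads within 0.01 of a read after division. The log2 fold change, p-value and adjusted p-value columns are the authors' deposited comparison, per the file headers.

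The 8 genes and the gene lists were chosen with earlier results of these data known. Symbols came from a name table that matched 26577 of 27134 identifiers, and coordinates, lengths and GC content from GENCODE 29 (26742 matched), which may differ from the authors' annotation. limma 3.58.1 (trend, R 4.3.3) was fitted to log2 of the normalised value plus 1 for genes averaging at least 1, with group as the only term. edgeR 4.0.16 (quasi-likelihood) and DESeq2 1.42.0 were run on the recovered reads as alternatives. The fits were checked on simulated counts, with changes set only in genes averaging at least 100 normalised counts. Those changes were larger than the ones of PLOD1, PLOD2 and SERPINH1. The check therefore does not cover these 3 genes, nor LOXL1, which averaged fewer counts. Genes named from the lists were up to 5 with the smallest adjusted p, plus P4HA1, P4HA2, P4HB, COLGALT1, FKBP10, BMP1 and PPIB; partners sharing exons were named for that overlap. P3H4, ATP7A, SLC31A1, VEGFA, CA9, ELN, FBLN5 and COL4A3 to COL4A6 fall outside this rule and were chosen after their values were seen. GC trends were removed per library by lowess (span 0.3), which could use 99.0% of genes tested. Limits from counts cover counting error only. No set test was run.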

Additional observations from a re-analysis of the deposited data

How the results depend on the processing

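Across 18 alternatives (pseudocount, filter, library totals, GC trend, replicate block, edgeR under 2 normalisations, DESeq2, the authors' deposited adjusted p, and each library left out) LOXL1, LOXL2, PLOD1 and PLOD2 kept direction and call. LOXL1 ranged from -1.80 to -1.23, LOXL2 from -1.38 to -1.21, PLOD1 from -0.32 to -0.21 and PLOD2 from 0.40 to 0.50; their largest adjusted p was 0.0109, for PLOD1. SERPINH1 lost its call in 3 leave-outs (-0.15 to -0.18). Over the leave-outs LOX ranged from -0.014 to 0.80, below 0 without CDO1 replicate 1, and PLOD3 from -0.064 to 0.038, above 0 without CDO1 replicate 1 (0.031) or mock replicate 2. PLOD3 was at 0.11 with the GC trend removed, with or without the replicate block; the cause was not tested. The count of called members was 4 to 6 over the leave-outs, 6 with the GC trend removed and 5 with edgeR and DESeq2.

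Leaving out each library gave 5 to 10 called collagen maturation genes, 11 to 13 substrates and partners, 0 to 2 copper genes and 7 to 11 hypoxia genes. The copper count was 2 with the GC trend removed, with or without the replicate block. By union exon length, chosen after seeing the data, LOXL2 made up 23.0% of lysyl oxidase TPM with CDO1 and 38.7% in mock, against 28.1% and 45.0%. Replicate numbers are shared between groups, but deviations of same-numbered libraries correlated at 0.0777, 0.299 and 0.0862, so they were not taken as pairs; the replicate block left the member count at 5 and moved the collagen maturation count from 7 to 9. LOX had 9 to 33 reads per library, and the cause of its spread between libraries was not tested.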
